A study of Homo sapiens with 16 samples.

Results

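The genes described here encode the laminin of the epithelial basement membrane and the receptors that hold epithelial cells to it, in MCF10A cells followed over 45 hours of HER2 inhibition. The 9 genes are LAMA3, LAMB3, ITGA6, ITGB4, COL17A1, DST, ITGA2, ITGA3 and ITGB1. They were chosen by symbol among the 18190 symbols of the array, and all of their 18 rows, out of 20589, were kept separate and followed over all 16 time points. MCF10A is an immortal but nontransformed line of human breast epithelium, the 1 line studied here, grown without serum in a medium that held EGF, insulin and hydrocortisone at every time point. The 0 hour culture was untreated, and the other 15 parallel cultures had received a small molecule inhibitor of the HER2 kinase at 1 µM for 3 to 45 hours, in steps of 3 hours. RNA of each culture was hybridized to 1 array, so no time point had a replicate. No series without the inhibitor was analysed here, and the effect of the inhibitor cannot be told apart from that of time in culture or of handling at the start. In RNA from whole cultures, fewer cells of a kind and less RNA per cell cannot be told apart.

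Laminin-332 is a secreted laminin of the epithelial basement membrane to which LAMA3 and LAMB3 each give a chain, and epithelial cells lay it down beneath themselves. The hemidesmosome grips it through the integrin of the ITGA6 and ITGB4 chains and through collagen XVII, and plectin and the product of DST tie both to the keratin filaments inside the cell. The same laminin is also bound by the integrin of the ITGA3 and ITGB1 chains, which works through actin-linked adhesions, while that of ITGA2 and ITGB1 is best known as a collagen receptor. In the mammary gland these structures belong to the basal cells that rest on the basement membrane.

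Of the 18 rows, 9 were above background on all 16 arrays, 5 on some of them and 4 on none. The median intensity of an array was 210 to 254, and 50.1% to 52.9% of its rows had a detection p under 0.05. Values are given as log2 normalized intensity, on which a difference of 1 is a doubling, and levels of different genes are not compared. Log2 differences between a pair of genes are given only for their change over time, and are not ratios of transcripts. Of 5 basal epithelial marker genes, KRT5, KRT17 and CDH3 were above background on all arrays, KRT14 on 1 array and TP73L, which encodes p63, on 10. All of 6 luminal markers were above background on every array, but CDH1 and KRT19 were dim, with intensities of 225 to 319 and 244 to 410. Of 5 endothelial markers PECAM1 and KDR were on 15 arrays each, TEK on 2 and CDH5 and VWF on 0. Of 7 fibroblast markers DCN was on 5 arrays and the rest on none, and of 5 leukocyte markers CD14 was on 12, PTPRC on 5 and 3 on none. PECAM1, KDR and CD14 were dim as well, with highest intensities of 362, 270 and 363.

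Changes were tested in limma between consecutive groups of 4 time points, namely 0 to 9, 12 to 21, 24 to 33 and 36 to 45 hours, and between 0 to 3 and 6 to 9 hours. Time points of a group are not replicates, so what changed inside a group also counts as spread. A second test asked for any smooth change over the 16 time points. A row was called at a Benjamini-Hochberg adjusted p under 0.05 over all 11957 tested rows, of which 13 belonged to the 9 genes.

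The chains of laminin-332 were described first. LAMA3 encodes the alpha 3 chain, which carries the sites that integrins bind. Its bright row, ILMN_6835, read 12.23, 13.09, 13.16 and 12.77 at 0, 3, 6 and 9 hours, and 12.58, 12.34, 12.32 and 12.09 from 12 to 21 hours. It then read 12.69, 12.40, 12.21 and 12.16 from 24 to 33 hours, and 12.95, 12.83, 12.78 and 12.77 from 36 to 45 hours. The untreated array was among the low ones, the arrays of 3 and 6 hours were the highest, and all of the last 4 were above all of the 4 before them. The mean fell by 0.48 on the log2 scale at 12 hours, from the first group to that of 12 to 21 hours (SE 0.16, adjusted p = 0.0327, limma) and rose by 0.47 from 24 to 33 hours to the last group (SE 0.16, 1.39-fold, adjusted p = 0.0282). Under median scaling in place of quantile normalization the changes were -0.30 and 0.28 and neither was called. The call of the fall was lost without the array of 3, 6, 15, 18 or 21 hours, when the change was between -0.48 and -0.36. The call of the late rise was lost without the array of 27, 30, 33, 36 or 39 hours, when it was between 0.40 and 0.48. From 0 to 3 hours to 6 to 9 hours LAMA3 differed by 0.31 (adjusted p = 0.316), and without the 3 hour array by 0.73 (adjusted p = 0.00746). Its last group differed from its first by 0.02 (SE 0.16, adjusted p = 0.931).

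LAMB3 encodes the beta 3 chain, whose loss in skin gives blistering. Its bright row, ILMN_1092, combines several probes, and the detection p deposited with it was not that of a single probe, so the detection filter left it out. Its intensity was at least 8.62 times the mean background of the array on all 16 arrays. It was therefore tested in a second fit that judged combined rows by intensity, an alternative chosen after seeing the data that covered 12121 rows. The row read 11.40, 12.10, 11.91 and 11.58 from 0 to 9 hours and 10.74, 10.58, 10.88 and 10.73 from 12 to 21 hours. It read 11.01, 10.74, 10.87 and 10.74 from 24 to 33 hours, and 11.78, 11.66, 11.64 and 11.46 from 36 to 45 hours. The 8 arrays of the middle of the series were all below the first 4 and the last 4. LAMB3 fell by 1.01 on the log2 scale at 12 hours (SE 0.12, 2.02-fold lower, adjusted p = 1.96e-05, limma) and rose by 0.80 at 36 hours (SE 0.12, 1.74-fold, adjusted p = 7.59e-05). Without 1 array in turn the fall lay between -1.13 and -0.89 and the rise between 0.75 and 0.85. Its last group stood -0.11 from its first (SE 0.12, adjusted p = 0.531). In the smooth time course LAMB3 was called (adjusted p = 0.00559) and LAMA3 was not (adjusted p = 0.182), although without the 0 hour array LAMA3 was called too (adjusted p = 0.00192).

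The courses of the laminin chains correlated at r = 0.85 over the 16 arrays, a description of points that share arrays and neighbouring times. The log2 difference of LAMB3 from LAMA3 was -1.06 ± 0.19 (SD, n = 4) in the first group, -1.60 ± 0.23 from 12 to 21 hours, -1.52 ± 0.17 from 24 to 33 hours and -1.20 ± 0.07 in the last. The change of this difference was -0.53 at 12 hours and 0.32 at 36 hours, without overlap of the groups in either step (2-sided exact permutation test, p = 0.0286 each, adjusted p = 0.0857 over 12 tests of 4 pairs of genes). With 4 time points against 4 the test cannot give a p below 0.0286, and the pairs were chosen after their values were seen. The test also treats neighbouring time points as exchangeable, which they need not be. The share of pairs without overlap over all rows was not determined.

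The promoters of both laminin genes are printed as a description, and no link of their motifs to the courses was tested. They are the 250 bases before the RefSeq start on GRCh38.p14, 5′ to 3′ on the strand of the gene, with AP-1 motifs (TGANTCA, which reads alike on both strands except for its middle base) and SP1 motifs (GGGCGG, either strand) in capitals. COL17A1 is set beside them as a hemidesmosome gene with neither motif. In the main fit its brighter row was called lower at 12 hours and higher at 36 hours. The call at 12 hours was lost under median scaling and with fewer time points of each group, with changes of -0.10 and -0.15. Whether its course bears on the motifs of the laminin genes was not tested. The LAMA3 window is chr18:23872770-23873019 on the plus strand, the LAMB3 window chr1:209651375-209651624 on the minus strand and the COL17A1 window chr10:104085881-104086130 on the minus strand.
LAMA3: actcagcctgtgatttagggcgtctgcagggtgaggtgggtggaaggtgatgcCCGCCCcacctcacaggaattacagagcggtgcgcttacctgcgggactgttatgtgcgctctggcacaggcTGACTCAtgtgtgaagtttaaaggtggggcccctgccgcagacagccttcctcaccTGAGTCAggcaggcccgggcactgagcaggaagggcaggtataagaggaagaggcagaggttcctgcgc
LAMB3: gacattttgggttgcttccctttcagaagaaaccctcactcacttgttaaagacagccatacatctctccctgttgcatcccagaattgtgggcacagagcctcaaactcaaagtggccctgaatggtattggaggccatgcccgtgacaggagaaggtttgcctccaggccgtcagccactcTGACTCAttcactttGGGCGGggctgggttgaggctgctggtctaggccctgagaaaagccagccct
COL17A1: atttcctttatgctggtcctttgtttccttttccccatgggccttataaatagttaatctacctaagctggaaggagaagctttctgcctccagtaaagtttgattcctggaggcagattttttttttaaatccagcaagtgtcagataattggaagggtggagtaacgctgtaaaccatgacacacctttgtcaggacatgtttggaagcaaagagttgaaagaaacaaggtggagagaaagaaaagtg

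LAMA3 held an AP-1 motif at 125 to 119 and another at 69 to 63 bases before the start, and LAMB3 held one at 67 to 61 bases, in the first of its 3 listed starts. The windows of the other listed LAMB3 starts held no AP-1 motif. The RefSeq table held promoters for 7 of the 9 genes, in 13 windows, and none for ITGB4 or ITGA3. An AP-1 motif was in 2 of the 13 windows, against 6.57% of the 35116 promoter windows of the table. An SP1 motif was in 8 of the 13, against 42.6% of all, and the FOXO motif TGTTTAC in 0 of the 13, against 2.98%. The windows of the other listed LAMB3 starts overlap each other and hold the same SP1 match, so the 13 windows are not all separate. The motifs in capitals did not overlap one another. A match is a match of letters, and no binding was measured here.

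**Figure D1:**
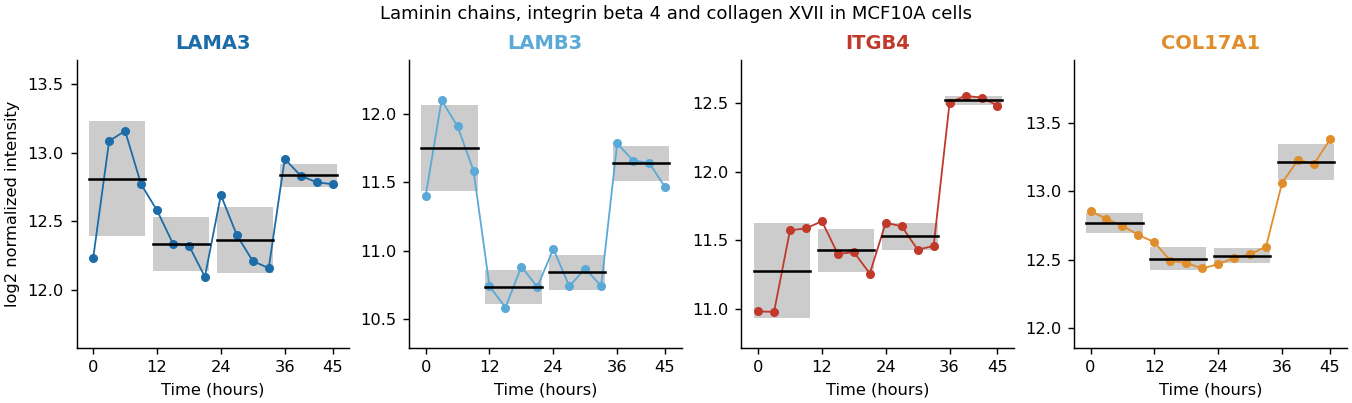
log2 normalized intensity (y axis) of the bright row of LAMA3, LAMB3, ITGB4 and COL17A1 at each of the 16 time points in hours (x axis), 1 array each. Black lines are means of 4 consecutive time points and grey bands their SD. All 4 panels span the same range of log2 units, and in each the last 4 points lie above the 8 points of the middle.

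The receptors of the hemidesmosome followed. ITGB4 encodes the beta 4 chain, whose long cytoplasmic tail binds plectin. Among genes with a bright row above background on all arrays it had the widest course, its highest value 2.99-fold above the lowest. Its bright row, ILMN_25923, read 10.98 at 0 and again at 3 hours and then 11.57 and 11.59 at 6 and 9 hours. From 12 to 21 hours it read 11.64, 11.40, 11.41 and 11.26, and from 24 to 33 hours 11.63, 11.60, 11.43 and 11.46. At 36, 39, 42 and 45 hours it read 12.51, 12.56, 12.54 and 12.48. The course had steps between 3 and 6 hours and between 33 and 36 hours. ITGB4 rose by 0.60 from 0 to 3 hours to 6 to 9 hours (SE 0.10, 1.52-fold, adjusted p = 0.000216, limma) and by 0.99 at 36 hours (SE 0.13, 1.99-fold, adjusted p = 1.00e-05). The last 4 time points were 1.24 above the first 4 (SE 0.13, 2.37-fold, adjusted p = 1.52e-06), and between 1.14 and 1.34 above them when 1 array was left out. At 12 and 24 hours it differed by 0.15 (SE 0.13, adjusted p = 0.412) and 0.10 (SE 0.13) and was not called. A dim second row, ILMN_26306, was above background on 5 arrays and was not called in any step.

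ITGA6 encodes the alpha 6 chain, the partner of beta 4. Its only row, ILMN_26997, was above background on none of the 16 arrays. Its intensity ran from 170 to 226, with a median of 202, and the dimmest detected rows of the arrays lay between 201 and 248. A probe that does not see a transcript and a transcript that is absent cannot be told apart here, and no change of ITGA6 is given.

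COL17A1 encodes collagen XVII, the transmembrane collagen of the hemidesmosome. Its brighter row, ILMN_5067, went from 12.85 at 0 hours to 12.44 at 21 hours, read 12.47, 12.51, 12.54 and 12.60 from 24 to 33 hours, and then 13.06, 13.23, 13.20 and 13.38 from 36 to 45 hours. It was lowest in the middle of the series, and its last 4 values were above all of the 12 before them. It fell by 0.26 at 12 hours (SE 0.07, 1.20-fold lower, adjusted p = 0.00704, limma) and rose by 0.69 at 36 hours (SE 0.07, 1.61-fold, adjusted p = 8.21e-07). Under median scaling the fall was -0.10 and was not called. The last group was 0.45 above the first (SE 0.07, adjusted p = 7.92e-05). The other row, ILMN_20087, ran from 9.34 at 21 hours to 10.04 at 45 hours and was called in the same direction, with a rise of 0.43 at 36 hours (SE 0.10, adjusted p = 0.00251) and a difference of 0.35 from the first to the last group (SE 0.10, adjusted p = 0.0128). The latter was 0.26 and not called with 2 time points of each group (adjusted p = 0.0993), and 0.22 and not called without the step between 21 and 24 hours (adjusted p = 0.334). Its change at 12 hours was -0.20 (adjusted p = 0.138).

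DST encodes dystonin, whose epithelial form links hemidesmosomes to keratin, and 3 of its rows were on the array. ILMN_11455 and ILMN_22870 were above background on 0 of the 16 arrays. ILMN_20946, a row of combined probes, was above background by intensity on 8 arrays, with an intensity of 331 at 0 hours, 270 at 3 hours and between 198 and 254 on the other arrays. By intensity it was above background on both arrays of 0 and 3 hours and on neither of 6 and 9 hours. Its deposited detection p, whose making for combined rows is not known, was 0.0528, 0.0102, 0.0765 and 0.0179 on these arrays in turn and ordered 0 and 9 hours the other way. Judged by intensity, the first pair was at least 1.74-fold higher than the second, taking the dimmest detected value of an array as the level of an undetected row. The limma contrast did not use this bound but the values themselves, with means of 6.92 and 5.89 (adjusted p = 0.0015). Its call was lost when the fit held only the arrays compared (adjusted p = 0.0601). The smooth course was called (adjusted p = 0.0131), and without the 0 hour array it was not (adjusted p = 0.58). In the steps at 12, 24 and 36 hours it was not called.

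**Figure D2:**
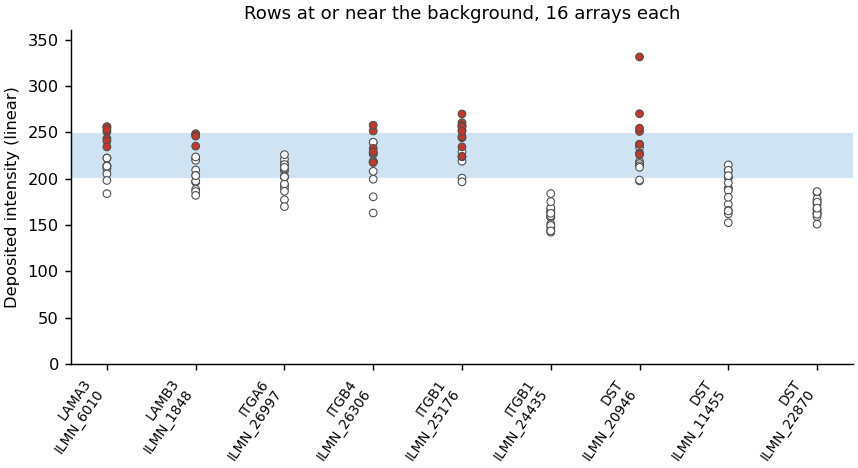
Deposited intensity on a linear scale (y axis) of the 9 member rows that were not above background on all arrays (x axis), with 1 point for each of the 16 arrays. Filled points are above background on their array, and the blue band spans the lowest detected intensity of the 16 arrays, from 201 to 248. ITGA6, ITGB1 ILMN_24435 and DST ILMN_11455 and ILMN_22870 have no filled point, and DST ILMN_20946 has its highest point, 331, at 0 hours.

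The integrins that work through actin-linked adhesions came next. ITGA3 encodes the alpha 3 chain of a laminin-332 receptor, and its only row, ILMN_11442, is one of combined probes. It read 10.43, 10.82, 11.08 and 11.20 from 0 to 9 hours, and between 10.65 and 11.06 from 12 to 33 hours. From 36 to 45 hours it read 11.29, 11.44, 11.52 and 11.20. The untreated array was the lowest, and the last 4 values were above the 8 of the middle. ITGA3 rose by 0.52 at 36 hours (SE 0.13, 1.43-fold, adjusted p = 0.00457, limma), by 0.36 and without a call under median scaling (adjusted p = 0.0577). The last group was 0.48 above the first (SE 0.13, adjusted p = 0.00943), and this was not called when the fit held only the arrays compared (adjusted p = 0.0559). Its time course correlated with that of ITGB4 at r = 0.85 over the 16 arrays.

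ITGB1 encodes the beta 1 chain, shared by many integrins. Its bright row, ILMN_4738, read 12.76, 12.89, 12.99 and 13.31 from 0 to 9 hours and then stayed between 13.36 and 13.60. The first 4 values were the lowest of the series. ITGB1 rose by 0.44 at 12 hours (SE 0.09, 1.36-fold, adjusted p = 0.00101, limma), and the last group was 0.47 above the first (SE 0.09, adjusted p = 0.000477). At 36 hours it differed by 0.02 (SE 0.09, adjusted p = 0.888), and under median scaling by -0.18. ILMN_11529, a row of combined probes with intensities of 463 to 802, was not called in the time course (adjusted p = 0.0551) or in any step. At 45 hours it read 8.47, its lowest value, where ILMN_4738 read its highest, 13.60. From the first to the last group ILMN_11529 differed by 0.09 (SE 0.15, adjusted p = 0.696, limma). Its time course was called under median scaling (adjusted p = 0.00217), with a spline of 5 degrees of freedom (adjusted p = 0.0168) and without the array of 9, 12 or 18 hours (adjusted p = 0.0389, 0.0384 and 0.0096). ILMN_25176 was above background on 12 arrays and not called, and ILMN_24435 on none.

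ITGA2 encodes the alpha 2 chain of a collagen receptor. Its row, ILMN_12662, was dim but above background on all 16 arrays, with intensities of 292 to 441. It read 6.80, 7.49, 7.84 and 7.95 from 0 to 9 hours, and between 7.31 and 8.02 on the later arrays. The untreated array was the lowest, and no step after 9 hours was called. It rose by 0.75 from 0 to 3 hours to 6 to 9 hours (SE 0.21, 1.68-fold, adjusted p = 0.013, limma), and in the same step ITGA3 rose by 0.52 (SE 0.13, adjusted p = 0.00715) and ITGB1 by 0.33 (SE 0.09, adjusted p = 0.0136). These 3 early calls were lost without the 0 hour array, with changes of 0.40, 0.32 and 0.26, and without the 9 hour array, with changes of 0.70, 0.46 and 0.17. That of ITGB4 was kept without either. In the smooth time course ITGA2 was not called (adjusted p = 0.0985), but it was with a spline of 5 degrees of freedom (adjusted p = 0.00877), under median scaling (adjusted p = 0.0308) and without the 33 hour array (adjusted p = 0.0485).

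**Figure D3:**
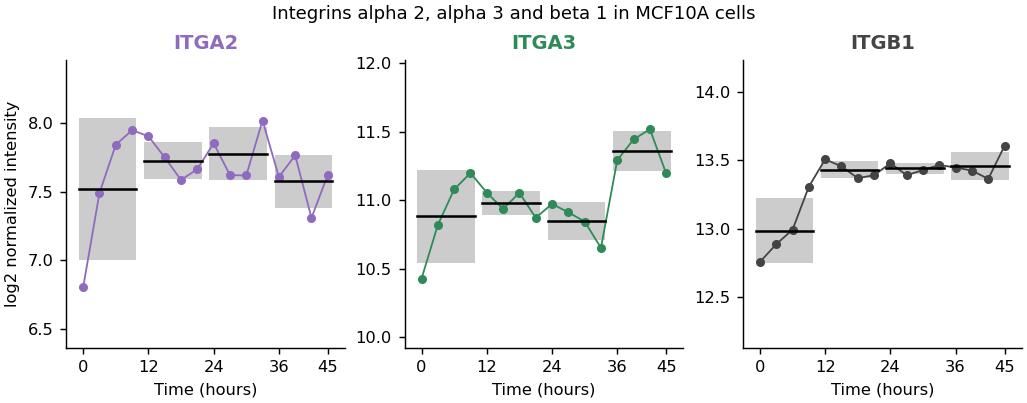
log2 normalized intensity (y axis) of ITGA2, ITGA3 and ITGB1 at each of the 16 time points in hours (x axis), 1 array each. The row of ITGA2 is dim, and those of ITGA3 and ITGB1 are bright. Black lines are means of 4 consecutive time points and grey bands their SD, and all 3 panels span the same range. The 0 hour array is the lowest of each panel, and the highest group mean of ITGA3 is that of 36 to 45 hours.

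The log2 difference of ITGB4 from ITGB1 was -1.91 ± 0.11 (SD, n = 4) from 24 to 33 hours and -0.94 ± 0.13 in the last group. That of ITGA3 from ITGB1 was -2.59 ± 0.15 and -2.10 ± 0.24. The changes at 36 hours were 0.97 and 0.50. Neither had overlap between the groups (2-sided exact permutation test, p = 0.0286 each, adjusted p = 0.0857 over the 12 tests). The share of pairs without overlap over all rows was not determined here either. As for the laminin pair, 0.0286 is the smallest p the test can give, and the pairs were chosen after their values were seen. These p-values therefore add no support to the changes. The difference of ITGA2 from ITGB1 changed by -0.22 at 36 hours (exact permutation p = 0.114, adjusted p = 0.196).

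Set side by side over all rows, 6 of the 13 tested member rows were called in the smooth time course, against 54.6% of all rows tested. From the first to the last group 6 of 13 were called, against 31.2% of all, with 5 higher against 16.2% and 1 lower against 15%. Of all calls 51.8% were higher, and 73.1% under median scaling. The lower one, ILMN_6010, is a dim row of LAMA3 that was above background on 7 arrays, 4 of them in the first group and 1 in the last, and changed by -0.33 (SE 0.11, adjusted p = 0.0359, limma), a call lost without the array of 0, 3, 39, 42 or 45 hours. In the step from 0 to 3 hours to 6 to 9 hours 5 of 13 were called, against 24.7% of all, with 4 higher against 13.6% and 1 lower, DST, against 11.1%. Of all calls 54.9% were higher, and 65.1% under median scaling. At 12 hours 3 of 13 were called, against 29.5%, with 1 higher against 15.1% and 2 lower against 14.4%. Of all calls there 51.2% were higher, and 73.1% under median scaling. At 24 hours 0 of 13 were called by limma at an adjusted p, where 3 of all 11957 rows (0.0251%) were, and 0 of 13 had an unadjusted p under 0.05. At 36 hours 5 of 13 were called, all of them higher, against 38% of all in either direction, 19.3% higher and 18.7% lower. Of all calls there 50.8% were higher, and 37.0% under median scaling, which called 3 of the 13. In the fit that judged combined rows by intensity, LAMB3 added 1 call to the time course and to the steps at 12 and 36 hours, against 54.7%, 29.4% and 37.9% of its rows. The median change of the 13 rows at 36 hours was 0.02, and that of all rows -0.00.

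**Figure D4:**
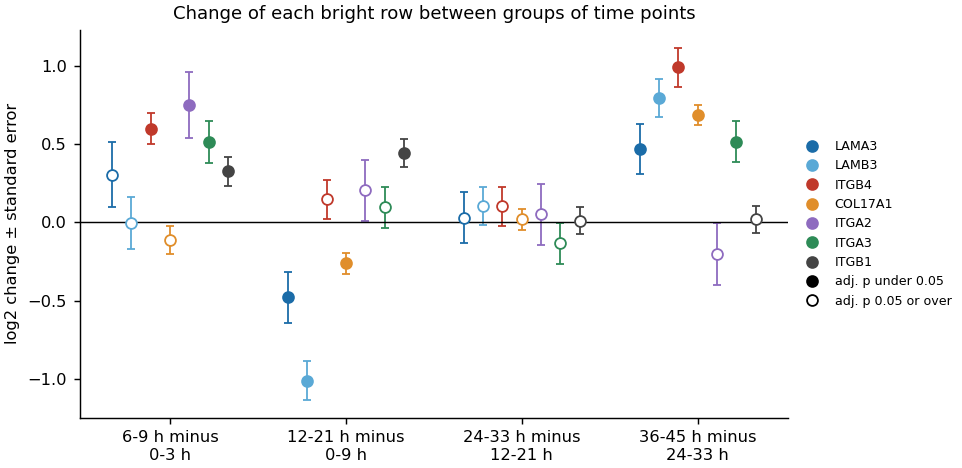
log2 change with its standard error (y axis) of 7 genes, 1 colour each, in the 4 steps between groups of time points (x axis). The row shown is the bright one of the gene, except for ITGA2, whose row is dim. Filled points were called at an adjusted p under 0.05 in limma and open points were not, with LAMB3 from the fit that judged combined rows by intensity. LAMA3, LAMB3 and COL17A1 are filled and below 0 at 12 hours, and at 36 hours the points of LAMA3, LAMB3, ITGB4, COL17A1 and ITGA3 lie between 0.47 and 0.99 while ITGA2 and ITGB1 are open.

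Other genes of the basement membrane and the hemidesmosome were taken as a list of 23 symbols, of which 18 rows for 15 symbols were tested. From the first to the last group 8 rows were higher, against 16.2% of all rows, and 0 lower, with a median of 0.23 against -0.02 for all rows. LAMB1, the beta 1 chain of other laminins, was 1.24 higher (SE 0.17, adjusted p = 3.53e-05), having risen by 1.33 at 12 hours, and differed by -0.13 at 36 hours (adjusted p = 0.605). COL4A5 and COL4A6, chains of the type IV collagen network, were 1.04 and 0.73 higher, and COL7A1, the anchoring fibril collagen beneath hemidesmosomes, 0.78 higher (SE 0.19, adjusted p = 0.00458). At 36 hours 7 of the 18 were called, near the 38% of all rows, with 7 higher and 0 lower, and 6 higher and 2 lower under median scaling. The bright row of PLEC1, which encodes plectin, differed by -0.57 (SE 0.23, adjusted p = 0.0694) from the first to the last group, and 6 of its 8 rows were above background on no array. The rows of CD151, a membrane protein that accompanies the laminin-binding integrins, differed by 0.23 (adjusted p = 0.166) and -0.11 (adjusted p = 0.711), and under median scaling by 0.36 (adjusted p = 0.0348) and 0.02 (adjusted p = 0.95).

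Of 21 other integrin genes, 12 rows were tested, and 2 were higher and 1 lower in the last than in the first group, against 31.2% of all rows in either direction, with a median of -0.08. ITGB2, best known from leukocytes, was 0.75 higher (SE 0.11, adjusted p = 4.04e-05), and 1.11 higher at 36 hours (adjusted p = 6.22e-07). The part in this of the leukocyte markers given above was not tested. In the same comparison ITGB5, a partner of the alpha V chain, was 0.60 higher (SE 0.10) and ITGB8 changed by -0.51 (SE 0.18, adjusted p = 0.0369), or -0.37 without a call under median scaling (adjusted p = 0.119). ITGAV and ITGA5, chains of the vitronectin and fibronectin receptors, fell at 12 hours by 0.42 (adjusted p = 0.00377) and 0.58 (adjusted p = 0.00461) and rose at 36 hours by 0.53 (adjusted p = 0.000385) and 0.42 (adjusted p = 0.0234). Under median scaling the late rise of ITGA5 was 0.31 (adjusted p = 0.0914). ITGB6 differed by -0.22 from the first to the last group (adjusted p = 0.544).

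Genes listed as integrin adhesion machinery had a share of calls like that of all rows. The list holds signalling and other proteins besides those that link integrins to actin. Of 32 rows tested for 27 symbols, 10 were called, against 31.2% of all, and 2 were higher and 8 lower in the last than in the first group, with a median of -0.18, and 4 higher and 6 lower under median scaling. C20orf42, which encodes kindlin-1, was changed by -0.92 (SE 0.18), RSU1 by -0.79 (SE 0.11) in its ILMN_20461 row and TES by -0.77 (SE 0.14) in its ILMN_17251 row, and LPP by 0.61 (SE 0.10). The other row of RSU1, ILMN_21628, differed by -0.40 and was not called (adjusted p = 0.0517), and that of TES, ILMN_14919, by -0.47 (adjusted p = 0.0156). At 36 hours 13 were called, against 38% of all, and 8 were higher and 5 lower, and 3 higher and 7 lower under median scaling. Of 4 rows tested for other matrix ligands of integrins, 1 was called from the first to the last group, CYR61, at 0.44 (SE 0.14, adjusted p = 0.0258), against 31.2% of all. Its call was lost without the array of 42 or 45 hours and when the fit held only the arrays compared.

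Desmosomes, which join cell to cell and anchor the same keratins, had 11 rows tested for 10 symbols. At 12 hours 7 were lower, against 14.4% of all rows, and 1 higher, and at 36 hours 7 were higher, against 19.3%, and 0 lower, with medians of -0.49 and 0.52. Under median scaling 5 were lower and 1 higher at 12 hours, and 6 higher and 1 lower at 36 hours. DSP, the plakin desmoplakin, changed by -0.69 (adjusted p = 0.000434) and then by 0.70 (adjusted p = 0.000187). From the first to the last group 3 were higher and 2 lower, against 31.2% of all in either direction. PKP2 and PKP4, desmosomal plaque proteins, were higher by 0.53 (SE 0.10) and 0.37 (SE 0.11), and PKP3 changed by -0.61 (SE 0.22, adjusted p = 0.0397), or -0.45 without a call under median scaling (adjusted p = 0.14). JUP, plakoglobin, had rows that differed from the first to the last group. ILMN_3789 changed by -0.97 (SE 0.21, adjusted p = 0.00216, limma) and ILMN_2607 by -0.09 (SE 0.13, adjusted p = 0.616). At 12 hours they changed by -1.56 (adjusted p = 5.26e-05) and -1.01 (adjusted p = 2.72e-05). At 36 hours the changes were 0.21 (adjusted p = 0.471) and 1.00 (adjusted p = 1.08e-05).

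**Figure D5:**
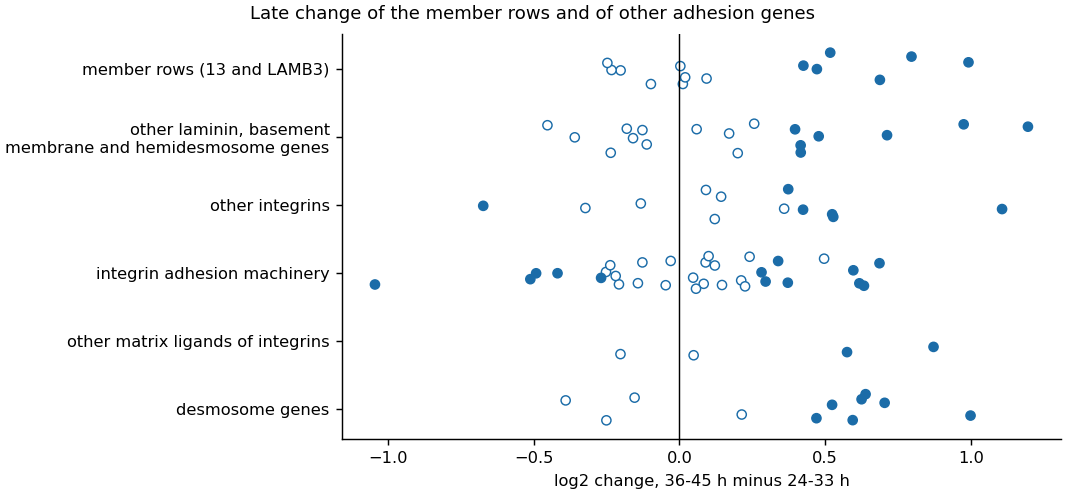
log2 change from 24 to 33 hours to 36 to 45 hours (x axis) of each tested row of the 9 genes, with LAMB3 added, and of 5 lists of other adhesion genes (y axis, spread at random within a list). Filled points were called at an adjusted p under 0.05 in limma. Filled points of the member rows, of the laminin list and of the desmosome list all lie to the right of 0 (under median scaling 2 of the laminin list and 1 of the desmosome list were lower), and those of the adhesion machinery lie on both sides.

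As a description, the rows most like the widest courses, among members above background throughout, were sought by correlation over the 16 arrays. The search covered 8945 rows above background on all of them. Those most like ITGB4 were ABCC3 (r = 0.96), SERPINB1 (r = 0.95) and TMEM43 (r = 0.95). Those most like LAMB3 were TEAD2 (r = 0.96), ATP6V1F (r = 0.95) and FLT4 (r = 0.95), and those most like ITGA2 were TMED5 (r = 0.91), TERF1 (r = 0.90) and UBLCP1 (r = 0.89). Rows compared in this way share the arrays and any step between neighbouring times.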

How the data were processed

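The authors deposited bead intensity values on a linear scale, not yet normalized across arrays, and for every row and array a detection p-value measured against negative control beads. The methods of the study name quantile normalization across arrays. The software that summarised the beads and the build of the array annotation are not given in the sources used here. Of the 20589 rows, 19092 had detection p-values that were whole multiples of 1 in 708 within 0.001 on every array and were taken as single probes, and 1497 as combined probes. In R 4.3.3 with limma 3.58.1, intensities were corrected with normexp (background level from the single-probe rows, offset 16), quantile normalized and log2 transformed, which compresses the changes of dim rows. The filter required detection (p under 0.05) on 3 arrays or more of the 16, and left 11957 rows for 11290 symbols.

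Time courses were tested with limma's moderated F-test of a natural cubic spline with 3 degrees of freedom, and groups of time points with limma contrasts in a fit of all 16 arrays, with Benjamini-Hochberg adjustment over all rows. Above background means a detection p under 0.05 for single-probe rows and, for combined rows and whatever their detection p, an intensity at or over the dimmest detected single-probe row of the array. Exact permutation tests over 4 against 4 time points were used for differences between genes. Of each gene list, the rows named were the largest changes called in both tests, up to 4, besides PLEC1, CD151, ITGAV, ITGA5, ITGB5 and ITGB6. Some items among those lists are not reported here by name. DSP and the ILMN_2607 row of JUP were named after their values were seen. The members and lists were chosen with earlier results of these data known. The scripts were tested on simulated data. Alternatives were other background corrections, scalings, filters, curves, time points compared and leaving out each array. The number of arrays limits the precision. Promoters are from RefSeq (GRCh38.p14). The labels name no chip or batch, so none was tested. Figures were drawn with matplotlib 3.10.9.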

Additional observations from a re-analysis of the deposited data

Results flagged for a closer look

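The LAMB3 row ILMN_1092 carried signal above background and yet was left out by the detection filter. On the array where it was dimmest against the background, its intensity was 8.62 times the mean of the negative controls inferred for that array, and its deposited detection p, between 0.0664 and 0.444, was under 0.05 on 0 of the 16 arrays. It is a row of combined probes, and 164 such rows were left out by detection p although their intensity was above background on at least 3 arrays. How the detection p of combined rows was formed was not tested.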

How the results depend on the processing

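The 38 values reported for single rows of the 9 genes were recomputed under each alternative, where 49 recomputed values lost a call, 10 gained one, 10 changed sign and 909 did none of these. No value that was called changed sign. The sign changes were of values with no call. From the first to the last group LAMB3 gave 0.0049 under median scaling and LAMA3 -0.0076 without the step between 21 and 24 hours, and with 1 array left out they ran from -0.23 to 0.0059 and from -0.17 to 0.14. At 12 hours ITGB4 gave -0.060 for 12 and 15 against 6 and 9 hours. At 36 hours ITGB1 gave -0.18 under median scaling and -0.011 for 36 and 39 against 30 and 33 hours, and from -0.029 to 0.052 with 1 array left out. In the step to 6 to 9 hours LAMA3 ran from -0.12 to 0.73. Of the 13 rows, a straight line called 2 in the time course in place of 6, comparing 2 time points of each group called 1 at 12 hours in place of 3, median scaling called 3 at 36 hours in place of 5, and the fit of only the arrays compared called 1 in the early step in place of 5. Without 1 array the early step called 2 to 6, and 2 without the array of 0 or of 9 hours. A straight line lost the calls of LAMB3, COL17A1, ITGA3 and DST. The early fall of DST lost its call when the fit held only the arrays compared (adjusted p = 0.0601). Over all rows, a straight line called 1953, against 6533. The fit of only the arrays compared called 2475 from the first to the last group against 3730, 2178 at 12 hours against 3527, 12 at 24 hours against 3 and 882 in the early step against 2954. Leaving out the step between 21 and 24 hours called 1617 from the first to the last group. The early step called 1960 rows without the array of 0 hours and 1644 without that of 9 hours. At 24 hours 1 to 6 rows were called without 1 array, and 11 under median scaling. Of 32 rows of the adhesion machinery, 17 in place of 10 were called from the first to the last group without the 0 hour array, and of 11 desmosome rows 3 in place of 5 without the array of 3 or of 39 hours. Of the 4 other matrix ligands, 3 were called under median scaling and without the 0 hour array, and 0 without that of 42 or 45 hours. The causes of these changes were not tested. No paired analysis was possible because every time point had 1 array, and no samples share a number within or across groups in a way that pairs them. A chip could not be fitted as a block, as no source used here names one.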
